A study of Homo sapiens with 18 samples.

Results

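PANC-1 cells, an established human line from a pancreatic ductal carcinoma, were transfected with PKR siRNA 1, PKR siRNA 2 or a control siRNA, and poly(A) RNA was sequenced 72 h later. The comparison described here set the 3 libraries of PKR siRNA 2 directly against the 3 libraries of PKR siRNA 1, which were transfected into the same line and sampled at the same time and differ in the siRNA alone as far as the labels tell. The 3 control siRNA libraries were used to tell which of the siRNAs had moved a gene. These 9 libraries are part of a series of 18, and the others, treated with DMSO or the PKR inhibitor C16, were not used here. Of the 26485 genes listed, the 10593 that averaged 10 normalized counts or more over the 9 libraries were compared. A normalized count is the number of reads on a gene divided by a factor for its library, and differences are given on the scale of log2(normalized count + 1), a scale that makes changes of poorly covered genes look smaller.

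An siRNA is a short RNA duplex. Its guide strand is loaded into an Argonaute protein, which cleaves mRNAs that pair with the whole guide. As a microRNA does, a guide can also lower mRNAs whose 3′ untranslated region (UTR) pairs with only its seed, the bases at positions 2 to 8 from the 5′ end of the guide, and so siRNAs to the same target usually have different seeds and different unintended targets. PKR, encoded by EIF2AK2, is a kinase that binds double-stranded RNA, phosphorylates the translation factor eIF2α and thereby limits translation during viral infection. The ID genes, which are targets of bone morphogenetic protein (BMP) signalling, encode inhibitors of basic helix-loop-helix transcription factors.

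The target sites of both siRNAs were read from the EIF2AK2 transcripts of GENCODE release 44 (hg38), where they were located by the first and last 7 bases of the sense strand of each siRNA. They are shown because the bases in capitals are those that pair with the seed of the guide, which differs between the siRNAs.
PKR siRNA 1 target: gcagatacatcAGAGATAa
PKR siRNA 2 target: gatcttaagccAAGTAATa
The first site lies on the minus strand at chr2:37138311-37138329, in exon 8 of 17. The second spans the junction of exons 13 and 14, with 9 bases at chr2:37119959-37119967 and 10 bases at chr2:37114850-37114859. Both sites are in the coding sequence, and each is present in 8 of the 9 coding transcripts annotated.

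Reads on genes ranged from 1512940 to 1873906 per library, and the median library held 1756617 with PKR siRNA 1 and 1739550 with PKR siRNA 2. Pairs of replicates had a chi-square per degree of freedom of 1.03 to 1.33 over genes, close to counting noise, and all pairs differed beyond it. The sources used here do not say whether replicates were separate cultures, so the p-values measure the spread between these libraries, which may be technical. The markers of PANC-1 were present, with KRT8 at 1246 to 5105 normalized counts, KRT18 at 977 to 2003, KRT19 at 761 to 3058 and the mesenchymal gene VIM at 4633 to 5381. The ductal keratin KRT7 reached only 20.5 and the epithelial cadherin CDH1 only 61.7 in any library. Of 21 markers of blood, endothelial, fibroblast, acinar, endocrine and liver cells, 11 were at 0 in all 9 libraries, including PTPRC, CD3E, DCN, PDGFRA, INS and ALB, and 2 were abundant enough to be tested (CD68 and COL1A1). Their summed level was 252 to 266 with the control siRNA, 241 to 301 with PKR siRNA 1 and 317 to 326 with PKR siRNA 2, nearly all of it from these 2 genes.

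The targeted gene was low with either siRNA. EIF2AK2, at chr2:37105141-37157047, stood at 95.5, 93.5 and 103 normalized counts in the control libraries, 10.0, 13.6 and 9.65 after PKR siRNA 1 and 7.96, 8.58 and 9.40 after PKR siRNA 2. The mean level was therefore 11.4% of the control mean with PKR siRNA 1 and 8.87% with PKR siRNA 2. Between the siRNAs the log2 difference was -0.31 (standard error 0.25, 95% interval -0.80 to 0.18, adjusted p = 0.282), which was not past the threshold, although the PKR siRNA 2 libraries all lay below the PKR siRNA 1 libraries (two-sided exact permutation, p = 0.1, as low as 3 libraries per group can give).

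ID1, ID2 and ID3 rose with both siRNAs against control and were higher again with PKR siRNA 2 than with PKR siRNA 1, by 4.17-fold, 4.61-fold and 4.00-fold. ID1 (chr20:31605283-31606514, plus strand) was at 117, 106 and 102 normalized counts in the control libraries, 199, 228 and 206 after PKR siRNA 1 and 906, 782 and 961 after PKR siRNA 2. ID2 (chr2:8681983-8684453, plus strand) was at 6.16, 6.45 and 2.84, then 31.1, 37.2 and 34.7, then 169, 143 and 175 in the same order. ID3 (chr1:23557930-23559794, minus strand) was at 38.0, 32.2 and 40.8, then 92.2, 88.0 and 106, then 382, 362 and 407. For none of the 3 genes did any library of one group reach the range of another. The log2 difference between the siRNAs was 2.06 for ID1 (standard error 0.08, adjusted p = 5.32e-36), 2.21 for ID2 (standard error 0.22, adjusted p = 1.27e-14) and 2.00 for ID3 (standard error 0.12, adjusted p = 3.88e-26). The similar difference was reached from different starting levels, since the rise over control with PKR siRNA 1 was 0.95 for ID1, 2.58 for ID2 and 1.35 for ID3 on the log2 scale.

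LXN, which encodes latexin, an inhibitor of carboxypeptidases, moved in opposite directions. It lies on the minus strand at chr3:158666414-158672693 and was at 261, 247 and 245 normalized counts in the control libraries. It was at 57.8, 56.2 and 47.3 with PKR siRNA 1 and at 847, 925 and 885 with PKR siRNA 2, so that control lay between the siRNAs. The difference of 4.02 (standard error 0.09, adjusted p = 6.28e-54), or 16.2-fold, combined log2 differences from control of -2.21 with PKR siRNA 1 and 1.82 with PKR siRNA 2. GADD45A, which encodes a stress sensor that can halt the cell cycle, was at 112 to 124 normalized counts with PKR siRNA 1 and 193 to 233 with PKR siRNA 2, and CDKN1A, which encodes the cyclin-dependent kinase inhibitor p21, at 61.7 to 80.0 and 110 to 147. Both were 1.78-fold higher with PKR siRNA 2 (log2 difference 0.83 for each, adjusted p = 6.81e-09 and 2.54e-07). In the control libraries GADD45A was at 51.6 to 82.5 and CDKN1A at 48.3 to 56.9. Against control, GADD45A was over 1.5-fold higher with both siRNAs, but CDKN1A only with PKR siRNA 2 (2.38-fold). With PKR siRNA 1 CDKN1A was higher by 1.34-fold (adjusted p = 0.0081), and its libraries lay above those of control. The paper, with its own test and the same thresholds, lists CDKN1A as raised by both siRNAs.

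**Figure D1:**
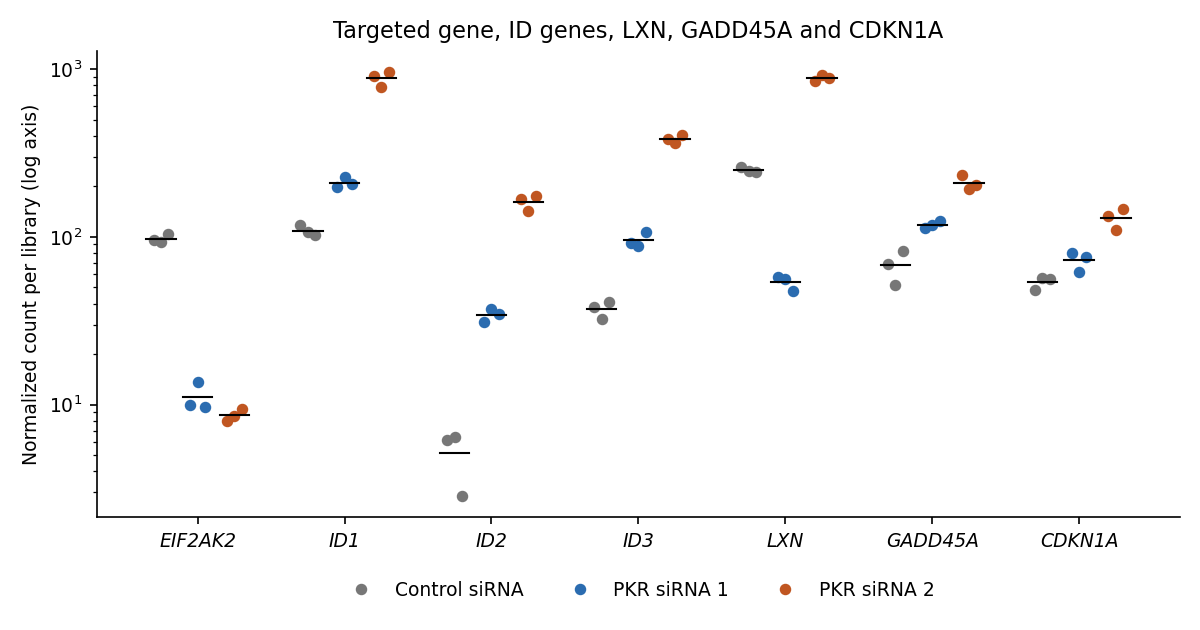
Normalized counts (log axis) of 7 genes in each of the 9 libraries, with points for libraries and black lines for means. EIF2AK2 is low with both siRNAs, the 3 ID genes step up from control to PKR siRNA 1 and to PKR siRNA 2, and LXN falls to a mean of 53.8 with PKR siRNA 1 and rises to 886 with PKR siRNA 2.

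Across all genes tested, 3362 passed the thresholds of an adjusted p under 0.05 and a fold change over 1.5 between the siRNAs, which is 31.7% of them. With PKR siRNA 2, 1740 were higher (16.4%) and 1622 lower (15.3%). The same thresholds called 21.1% of genes between PKR siRNA 1 and control and 23.5% between PKR siRNA 2 and control, so more genes separated the siRNAs from each other than separated either of them from control. The libraries of the siRNAs did not overlap for 60.6% of all genes tested and for 3257 of the 3362 called. Most of the called differences were moderate, with a median of 0.92 on the log2 scale, and 42.5% were over 2-fold. Among the 192 that were over 4-fold, 139 were higher with PKR siRNA 2 and 53 lower.

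**Figure D2:**
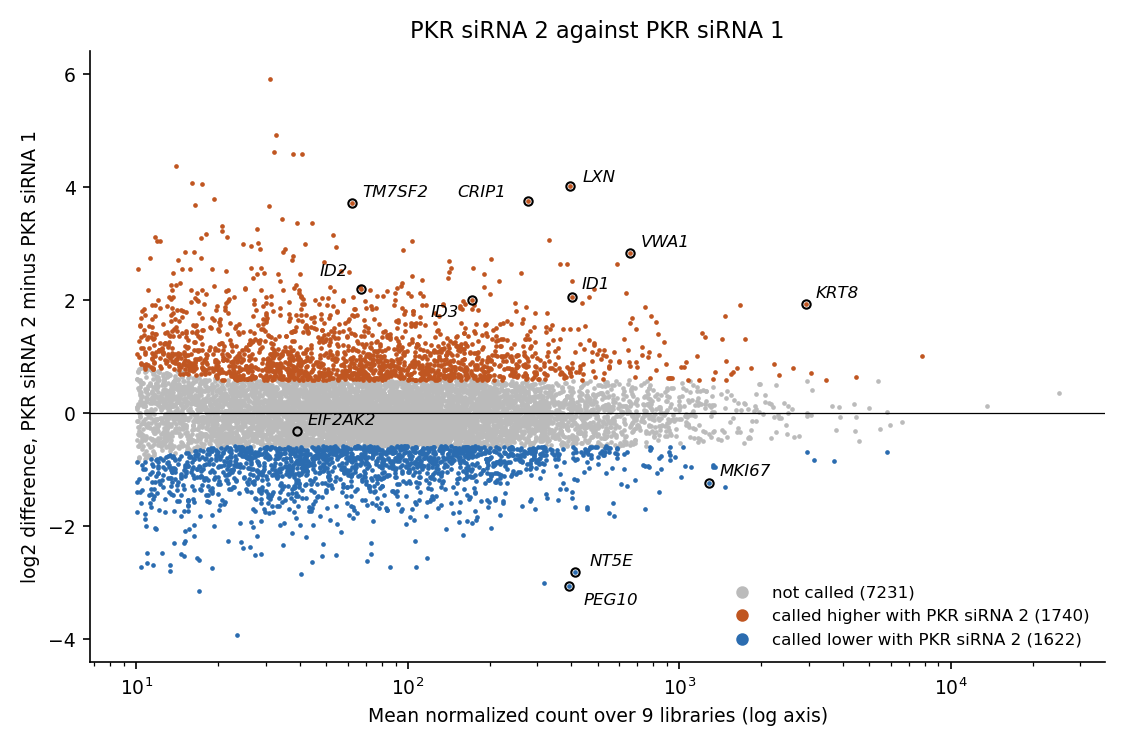
Each point is 1 of the 10593 genes tested, with its mean normalized count over the 9 libraries (log axis) and its log2 difference between PKR siRNA 2 and PKR siRNA 1. Called genes are found from the lowest levels tested to above that of keratin KRT8 (difference 1.93), while EIF2AK2 lies among the genes not called.

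The control libraries sorted the 3362 called genes into classes, by whether each siRNA differed from control at the same thresholds. Only PKR siRNA 2 passed for 1184 (35.2%), such as PEG10, MRPL42 and OTUB2, and only PKR siRNA 1 for 947 (28.2%), such as the junction gene JUP and the transcription factor gene TEAD2. Both passed in opposite directions for 217 (6.45%), LXN among them, and in the same direction for 120 (3.57%), including the 3 ID genes. Neither passed for the other 894 (26.6%). In 893 of these the control mean lay between the siRNAs, which follows almost wholly from the thresholds. A gene within 1.5-fold of control with both siRNAs can differ by over 1.5-fold between them only with control in between. An example was the ferritin gene FTH1, at 1959 normalized counts with PKR siRNA 1, 2474 with control and 3405 with PKR siRNA 2. Of its exon bases 14.6% overlap an opposite-strand gene. Genes higher with PKR siRNA 2 were more often a fall with PKR siRNA 1 alone (592) than a rise with PKR siRNA 2 alone (501), whereas genes lower with PKR siRNA 2 were more often a fall with PKR siRNA 2 alone (683) than a rise with PKR siRNA 1 alone (355). The comparisons with control share the 3 control libraries, and these counts were not tested.

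The genes with the largest rise were taken among called genes averaging 50 normalized counts or more whose siRNA libraries did not overlap. CRIP1 and CRIP2, which encode small LIM-domain proteins and lie near each other at chr14:105486920-105488787 and chr14:105472938-105480170, were at 43.3, 67.1 and 43.4 and at 27.8, 23.6 and 25.1 normalized counts with PKR siRNA 1. With PKR siRNA 2 they reached 711, 671 and 692 and 223, 209 and 219, differences of 3.76 and 3.04. CRABP2, which carries retinoic acid to its nuclear receptor, went from 57.9 to 93.3 with PKR siRNA 1 to 613 to 686 with PKR siRNA 2, a difference of 3.06. TM7SF2, a reductase of cholesterol synthesis, differed by 3.72, with 6.75 to 14.4 normalized counts against 132 to 162. The matrix genes MXRA5 and VWA1 differed by 3.16 and 2.83, and VWA1 stood at 131 to 198 with PKR siRNA 1, 637 to 738 with control and 1113 to 1156 with PKR siRNA 2. The other 6 of the 12 largest rises were LXN, the galactose mutarotase gene GALM (2.95), the hydrolase gene ABHD15 (2.88), FKBP9 (2.73), which encodes a prolyl isomerase of the endoplasmic reticulum, RMND5A (2.69), a ubiquitin ligase subunit, and PDE5A (2.64), which degrades cyclic GMP. All 12 had fallen with PKR siRNA 1 and risen with PKR siRNA 2 against control. Choosing the largest differences favours such genes, and this is a description of the 12.

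The largest falls were mostly genes lowered by PKR siRNA 2. PEG10, an imprinted gene derived from a retrotransposon (chr7:94656325-94669694, plus strand), was at 661, 683 and 627 normalized counts in the control libraries and 451, 462 and 483 with PKR siRNA 1, against 51.7, 63.3 and 50.8 with PKR siRNA 2 (difference -3.06, standard error 0.08, adjusted p = 4.28e-47). NT5E, the ectonucleotidase CD73 (chr6:85449584-85495791, plus strand), rose from 409 to 420 in control to 688 to 757 with PKR siRNA 1 and fell to 97.5 to 106 with PKR siRNA 2 (difference -2.82). The ranges of the 3 groups did not overlap for these 2 genes. Others were C15orf52, listed under its older symbol (-2.73), the mitochondrial ribosome gene MRPL42 (-2.72), the deubiquitinase gene OTUB2 (-2.61), the podosome scaffold gene SH3PXD2A (-2.57), the atypical E2F repressor gene E2F7 (-2.52), the malic enzyme gene ME1 (-2.30), the Wnt antagonist gene SFRP1 (-2.27) and NAV2 (-2.16), of whose exon bases 9.71% overlap genes on the opposite strand. Whether counting used strand is not given in the sources used here.

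**Figure D3:**
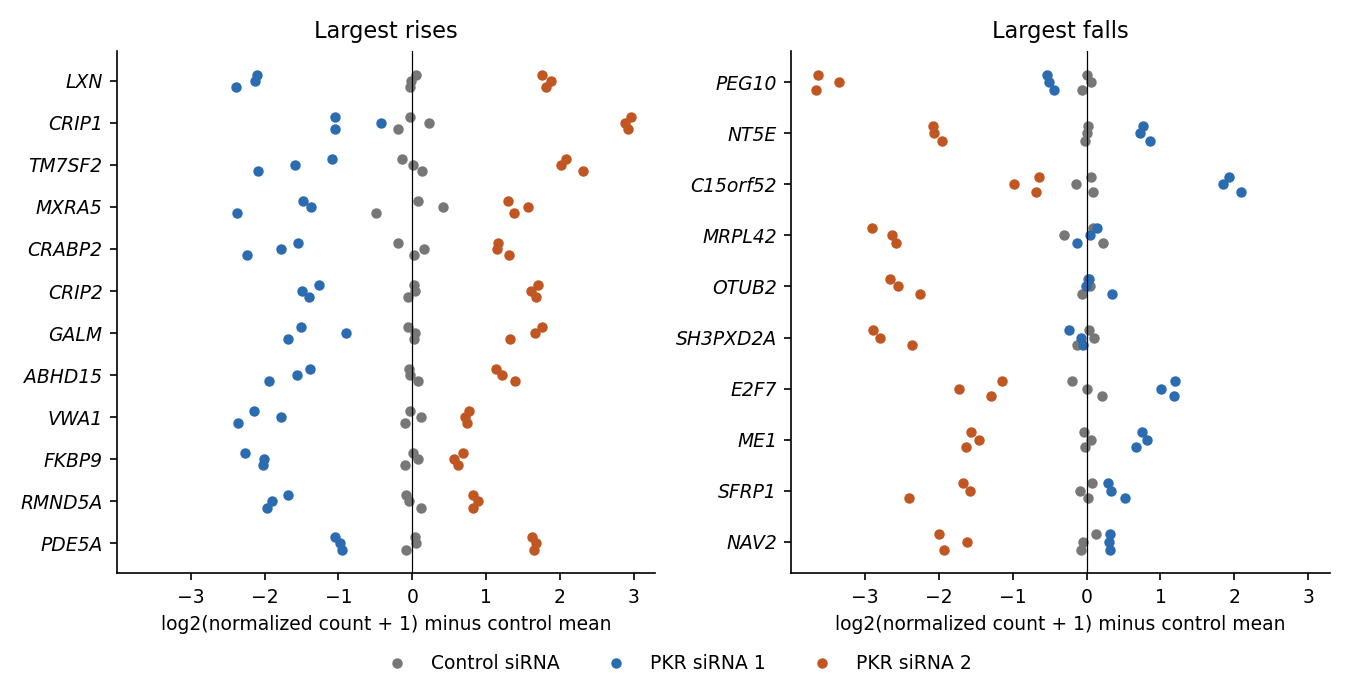
The 12 largest rises (left) and 10 of the 12 largest falls (right) of PKR siRNA 2 against PKR siRNA 1, with 1 point per library, as log2(normalized count + 1) minus the control mean of the gene. In the left panel the siRNAs lie on opposite sides of control, and in the right panel PKR siRNA 2 lies below control throughout, down to a mean difference of -3.55 for PEG10.

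Gene lists were read against the share of all genes called, 16.4% higher and 15.3% lower, and against the median difference of all genes tested, -0.01. Of 20 tested members of the list of ID proteins and BMP signalling, 7 were higher with PKR siRNA 2 (35%) and 2 lower, with a median of 0.33. The 7 include the 3 ID genes, which were known to differ when the comparison was chosen, so this share and median partly restate that choice. Beside the ID genes these were SMAD6 (difference 1.69), SMAD7 (1.06) and the receptor genes BMPR1A (1.15) and ACVR2B (1.05). SMAD6 and SMAD7 inhibit the pathway and are also its targets. BMPR1A differed from control by -1.12 with PKR siRNA 1 and 0.03 with PKR siRNA 2, so its difference lay with PKR siRNA 1. ACVR2B was at 4.54 to 13.3 normalized counts with PKR siRNA 1 and 11.8 to 17.9 with PKR siRNA 2. Its siRNA libraries thus overlapped, and it was not called against control with either siRNA. SMAD6 was at 12.5 to 16.7 normalized counts with PKR siRNA 1, 21.8 to 25.8 in control and 41.8 to 57.7 with PKR siRNA 2. The ligand gene BMP6 went the other way, at 143 ± 5.58 with PKR siRNA 1, 53.0 ± 1.09 with PKR siRNA 2 and 73.4 ± 6.21 in control (SD, n = 3 each, difference -1.42), and 15.4% of its exon bases overlap genes on the opposite strand. The signal transducers SMAD1, SMAD5 and SMAD4 had differences of 0.31, 0.06 and 0.03 and were not called. The list of TGF-beta signalling had 4 of 20 higher and 4 lower, with the coreceptor gene TGFBR3 (2.46) and SKIL (1.11), a repressor of SMAD proteins, higher and the receptor gene TGFBR1 (-0.73) and the target CTGF (-0.87) among the lower.

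Genes of the eIF2 kinase pathway and the integrated stress response, in which phosphorylated eIF2α favours translation of the transcription factor ATF4, were 2 higher and 8 lower of 23 (34.8% lower, median -0.31). Against control, 13 of the 23 had risen with PKR siRNA 1, where 8.53% of all genes tested rose and 12.6% fell, and 6 with PKR siRNA 2, where 10.8% rose and 12.8% fell. ATF4 itself was at 649 normalized counts with PKR siRNA 1, 510 with PKR siRNA 2 and 292 in control, and the difference between the siRNAs of -0.34 was not called. Among the lower members, PHGDH, of serine synthesis, differed by -1.63 and SESN2, which senses leucine, by -1.56. These 2 genes stood above control with PKR siRNA 1 (86.0 and 195 against 50.1 and 101 normalized counts) and below it with PKR siRNA 2 (27.1 and 65.8). The transcription factor gene CEBPB was also lower (-1.34), and 26.6% of its exon bases overlap an antisense gene. The 2 higher members were NUPR1 (2.47), a stress-induced chromatin protein, at 13.6 against 78.7, and DDIT4 (1.02), an inhibitor of mTORC1, at 200 against 404. The other eIF2 kinases EIF2AK1, EIF2AK3 and EIF2AK4 had differences of 0.15, 0.14 and 0.16, and none was called.

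RNA sensors and interferon-stimulated genes were 8 higher and 4 lower of 21. The higher genes included IRF7 (2.21), IFITM1 (1.84), IFITM2 (1.18) and IFITM3 (0.86), IRF9 (0.79), the adaptor gene MAVS (0.78) and DDX58 (0.62), which encodes the sensor RIG-I. IRF7, the transcription factor for type I interferons, was at 15.2 ± 1.59 normalized counts with PKR siRNA 1, 25.4 ± 3.09 in control and 73.9 ± 5.49 with PKR siRNA 2 (SD over 3 libraries). The 4 lower were IFIT3 (-0.997), IFIT5 (-0.82), ISG15 (-0.80) and the sensor gene IFIH1 (-0.71), so the list did not move in 1 direction, and its median was 0.08. Of 14 genes of the RNA interference machinery, through which both siRNAs act, 1 was lower and 1 higher. TNRC6A (-0.74) was lower and DDX6 (0.64) higher, and DDX6 had a difference of 0.54, short of 1.5-fold, without the second PKR siRNA 1 library. The Argonaute genes AGO1 to AGO4 had differences of 0.22, -0.10, 0.40 and -0.13, none of them called.

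Genes of mitosis were lower with PKR siRNA 2 for 20 of 24 (83.3%) and higher for 0, with a median of -0.72. The proliferation marker MKI67 was at 1732, 1940 and 1950 normalized counts with PKR siRNA 1, 1142, 1343 and 1048 in control and 767, 781 and 846 with PKR siRNA 2. Its libraries did not overlap between any of the groups, and the difference was -1.23. The cyclin gene CCNA2 (-1.23), at 131 against 55.6, overlaps an opposite-strand gene over 9.08% of its exon bases, and the kinase gene PLK1 (-1.21) was at 319 against 137. Against control, 3 of the 24 had risen (8.53% of all genes) and 0 fallen with PKR siRNA 1, and 0 had risen and 8 fallen (12.8% of all genes) with PKR siRNA 2. Genes of DNA replication moved less, with 7 of 30 lower (23.3%, median -0.30), among them the origin-binding gene ORC1 (-1.06) and the flap endonuclease gene FEN1 (-1.06). Of the regulators of G1, 4 of 17 were higher, which were GADD45A, GADD45B (1.02), CDKN1A and MDM2 (0.71). The 4 lower were the cyclin genes CCND3 (-1.30) and CCND1 (-0.80), CDK2 (-0.86) and CDKN2D (-1.04), and the last was not called without the first PKR siRNA 2 library (-0.74, adjusted p = 0.0674). CDKN2D passed the minimum of 10 only through its level with PKR siRNA 1 (21.1, against 9.45 in control and 9.996 with PKR siRNA 2). CDKN2A and CDKN2B were at 0 in all 9 libraries.

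Outputs of ERK signalling and AP-1 genes were lower for 11 of 20 (55.0%) and higher for 0, with a median of -0.65. FOSL1, an AP-1 subunit, was at 864 to 967 normalized counts with PKR siRNA 1, 542 to 573 in control and 241 to 267 with PKR siRNA 2, a difference of -1.82. Its partner gene JUN was at 383 to 463, 288 to 314 and 130 to 148 in the same order (-1.56). The largest difference was that of EGR1 (-3.14), an immediate-early transcription factor, with means of 35.4 and 3.86 normalized counts and 11.7 in control. The phosphatase genes DUSP5 (-2.03) and DUSP6 (-1.34) and the feedback inhibitor gene SPRY4 (-1.11), which are induced by ERK and restrain it, and the ETS factor genes ETV5 (-1.82) and ETV4 (-1.26) were lower too. Against control, 5 of the 20 had risen with PKR siRNA 1 (8.53% of all genes) and 8 had fallen with PKR siRNA 2 (12.8% of all genes). This left the groups of siRNA libraries on either side of control for FOSL1 and EGR1 but not for DUSP6 or ETV5. DUSP6 was lower with PKR siRNA 2 alone. ETV5 was also below control with PKR siRNA 1, at 116 to 163 normalized counts against 164 to 184, but by less than 1.5-fold (-0.33).

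Epithelial genes were higher with PKR siRNA 2 for 11 of 15 (73.3%), with a median of 0.94. KRT8 was at 1288, 1347 and 1246 normalized counts with PKR siRNA 1, 2504, 2571 and 2508 in control and 4730, 4941 and 5105 with PKR siRNA 2, and KRT19 at 761 to 873, 1186 to 1250 and 2980 to 3058. In these keratin genes the libraries of the 3 groups were well apart, and the differences were 1.93 and 1.92. The cadherin gene CDH1 (2.19) and the epithelial transcription factor gene ELF3 (2.06) were also moved in opposite directions by the siRNAs. JUP, which encodes the junction protein plakoglobin, was at 156 ± 14.7 with PKR siRNA 1 but 558 ± 4.58 in control and 600 ± 32.8 with PKR siRNA 2 (SD, n = 3 each, difference 1.94), so this difference lay with PKR siRNA 1. Against control, 11 of the 15 had fallen (12.6% of all genes) and 0 risen with PKR siRNA 1, and 4 had risen (10.8% of all genes) and 2 fallen (12.8%) with PKR siRNA 2. The surface antigen gene EPCAM fell with both, from 103 in control to 12.3 and 10.7 (difference -0.18, adjusted p = 0.535, not called). KRT7 was the only member lower with PKR siRNA 2 (-1.22), and it was not called without the first PKR siRNA 2 library (-0.81, adjusted p = 0.0595).

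The higher level of epithelial genes did not come with lower mesenchymal genes, of which 5 of 10 were higher and 1 lower, with a median of 0.42. SPARC (2.24), a matrix glycoprotein, was at 19.8 with PKR siRNA 1, 82.0 in control and 97.6 with PKR siRNA 2, the membrane protease gene MMP14 (1.64) at 18.7, 32.5 and 58.4, and S100A4 (1.58) at 103, 122 and 308. An opposite-strand gene overlaps 9.57% of the exon bases of S100A4. The other 2 were CDH2 (0.64) and SNAI1 (0.89). Without the second PKR siRNA 1 library 3 members were higher. AXL was lower (-0.60), but by less than 1.5-fold without the first (-0.57) or the second (-0.55) PKR siRNA 2 library. VIM, at 4940 and 5242, had a difference of 0.09 and was not called. Among the markers of other cell types, the fibroblast collagen gene COL1A1 was lower with PKR siRNA 1 (25.6 normalized counts) than in control (95.2) or with PKR siRNA 2 (110, difference 2.08), while the fibroblast genes DCN and PDGFRA were at 0 in all 9 libraries.

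Of the laminins, collagens and integrins, 7 of 25 were higher and 5 lower. The laminin chain gene LAMB3 (-2.72) was lower, at 20.1 normalized counts with PKR siRNA 1, 8.73 in control and 2.29 with PKR siRNA 2. It averaged 10.4 over the 9 libraries and passed the minimum of 10 only through its level with PKR siRNA 1. Its call therefore depends on that filter and on few reads. LAMA3 (0.59) was higher. The integrin genes ITGA2 (-1.26) and ITGA3 (-0.94) and the anchoring collagen gene COL7A1 (-1.33) were lower as well. Higher were basement membrane genes, with the nidogen gene NID1 at 272 against 1184 (2.12), the perlecan gene HSPG2 at 323 against 856 (1.41) and LAMA5 at 474 against 966 (1.03). HSPG2 was nevertheless below control (1327) with both siRNAs, and 11.7% of its exon bases overlap an opposite-strand gene. Of the YAP and TEAD genes, 6 of 20 were higher and 4 lower. TEAD2 (2.86), a DNA-binding partner of YAP, was at 6.57 with PKR siRNA 1 against 43.1 in control and 53.9 with PKR siRNA 2, and YAP1 itself (1.00) at 134, 310 and 269. CRIM1 (1.61) and the kinase gene LATS2 (1.59) were higher, and the targets CTGF and NT5E, given above, were lower.

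NF-kB targets were lower for 7 of 16 (43.8%) and higher for 1, with a median of -0.35. With a minimum mean of 30, which leaves out poorly covered members, 4 were lower. RELB (-1.60) and NFKB2 (-1.56), the subunits of the noncanonical pathway, were at 84.1 and 385 in control, 38.0 and 214 after PKR siRNA 1, and 11.6 and 72.0 after PKR siRNA 2. They were thus below control with both siRNAs and further below it with PKR siRNA 2. The cytokine gene IL32 was at 18.3 to 29.8 in control, 7.72 to 10.0 after PKR siRNA 1 and 0.99, 0 and 0.94 after PKR siRNA 2, where 1 read at most was counted in each library. It averaged 10.95 over the 9 libraries and passed the minimum of 10 only through the control libraries. LIF (-1.90) was instead above control with PKR siRNA 1 (289 against 170) and below it with PKR siRNA 2 (77.0). CSF1 (0.78) was the 1 higher member.

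Genes of cholesterol and fatty acid synthesis were lower for 8 of 24 (33.3%) and higher for 1, with a median of -0.22. DHCR7, a late enzyme of cholesterol synthesis, was at 534 under PKR siRNA 1 against 202 under PKR siRNA 2, a difference of -1.39. INSIG1 (-1.90), which retains the SREBP proteins in the endoplasmic reticulum, was at 249 against 66.5, while SREBF1 (0.97), which encodes an SREBP, was the 1 higher member. The reductase gene TM7SF2, given above as higher by 3.72, was not on this list. The early enzyme gene HMGCS1 had a difference of -0.14 and was not called. Of the glycolysis and hypoxia genes, 7 of 24 were lower (29.2%) and 2 higher. The hexokinase gene HK2 (-1.97) and the glucose transporter gene SLC2A1 (-1.22) were above control with PKR siRNA 1, at 60.1 and 163 against 26.4 and 88.7, and at 14.9 and 69.2 with PKR siRNA 2. The peptide hormone gene ADM (1.77), a hypoxia target, was at 171 against 585. NRF2 targets had 6 of 20 lower and 2 higher. SRXN1 (-1.45) and the cystine transporter gene SLC7A11 (-0.97) were lower, and the heme oxygenase gene HMOX1, at 472 and 525 with the siRNAs and 182 in control, had a difference of 0.16 that was not called.

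**Figure D4:**
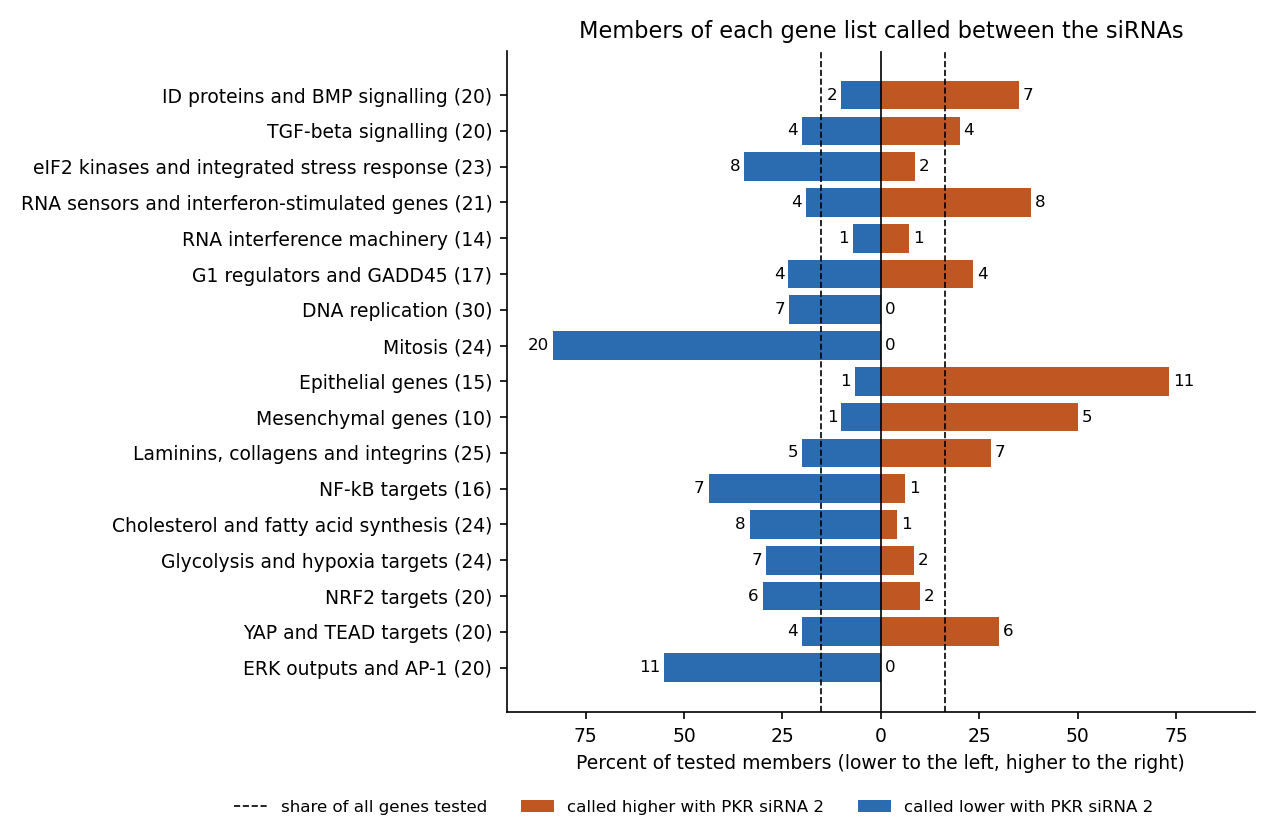
Share of the tested members (number in parentheses) of 17 gene lists called higher (right) or lower (left) with PKR siRNA 2 than with PKR siRNA 1, with the number of genes at the end of each bar. Dashed lines mark 16.4% and 15.3%, the shares of all genes tested. The lists of mitosis (83.3% lower), epithelial genes (73.3% higher) and ERK outputs (55.0% lower) lie farthest beyond them.

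Since the siRNAs differ in sequence, 3′ UTRs were searched for the 7 bases complementary to each seed, AGAGATA for the guide of PKR siRNA 1 and AAGTAAT for that of PKR siRNA 2, on the strand of the mRNA only, with overlapping matches counted. The same was done for the passenger strands of the duplexes, as GTATCTG and TTAAGAT. Of the genes tested, 10108 had a 3′ UTR of at least 50 bases in GENCODE release 44. A match to the guide of PKR siRNA 1 was present in 1205 of these UTRs (11.9%) and a match to that of PKR siRNA 2 in 1674 (16.6%). Windows around matches are shown for some of the largest rises that match the guide of PKR siRNA 1 and of the largest falls that match the guide of PKR siRNA 2, so that they can be set against the target sites, with the 7 matching bases in capitals (hg38, written along the mRNA).
ABHD15, PKR siRNA 1: tatagtatatcAGAGATAa
PDE5A, PKR siRNA 1: ataggagtattAGAGATAa
PEG10, PKR siRNA 2: taatcaagtttAAGTAATa
NT5E, PKR siRNA 2: cagctctgcatAAGTAATt
E2F7, PKR siRNA 2: tgatttcctgaAAGTAATt
ME1, PKR siRNA 2: actaatgtttgAAGTAATg
These lie at chr17:29561363-29561381 (minus strand), chr4:119495657-119495675 (minus), chr7:94669128-94669146 (plus), chr6:85495346-85495364 (plus), chr12:77023848-77023866 (minus) and chr6:83210782-83210800 (minus). All are in the last exon of the gene, in the 3′ UTR. Only 1 match per gene is shown, out of 2 for ABHD15 and ME1 and 4 for PEG10. The ABHD15 window shown also shares the bases next to the match with the target site, which its other match does not. A match of 7 bases is a description and not a site of action.

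Of the 12 largest rises, 3 held a match to the guide of PKR siRNA 1 (ABHD15 with 2 matches, RMND5A and PDE5A) and 0 a match to the guide of PKR siRNA 2. Of the 12 largest falls, 8 held a match to the guide of PKR siRNA 2, among them PEG10 and MRPL42 with 4 each, SH3PXD2A and ME1 with 2 each and NT5E and E2F7 with 1 each. MRPL42 also held 3 matches to the guide of PKR siRNA 1. Its annotated UTR of 14993 bases runs beyond the gene end used for counting at 93503772, which 2 of its 4 matches to the guide of PKR siRNA 2 precede. All 3 matches to the guide of PKR siRNA 1 lie beyond that end. OTUB2, C15orf52, SFRP1 and NAV2 held none to either guide. The passenger strand of PKR siRNA 1 had a match in 2 of the 12 rises and 3 of the 12 falls, against 11.8% of all genes with a UTR. That of PKR siRNA 2 had a match in 0 of the rises and 4 of the falls, against 17.4%. None of these counts for the largest rises and falls was tested or split by UTR length. LXN and the 3 ID genes held no match to either guide, and EIF2AK2 held 1 to the guide of PKR siRNA 2, beside its target site.

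Over all genes with a UTR, those with a match to the guide of PKR siRNA 1 had a median difference of 0.22 between the siRNAs, against -0.04 for those without. The match was present in 21.4% of the genes called higher with PKR siRNA 2, 8.31% of those called lower and 10.5% of those not called. For the guide of PKR siRNA 2 the direction was the opposite, with medians of -0.10 and 0.00 and a match in 24.1% of the genes called lower, 14.9% of those called higher and 15.3% of those not called. The gap between these medians of -0.10 became -0.22 when the match had to be followed by A, 8 bases in all, and that for the guide of PKR siRNA 1 went from 0.26 to 0.29. With 2 or more matches to the guide of PKR siRNA 1, 33.5% of 182 genes were called higher, with 1 match 28.6% of 1023 and with none 14.6% of 8903. For the guide of PKR siRNA 2, 23.8% of 400 genes with 2 or more matches were called lower, 21.9% of 1274 with 1 and 14.0% of 8434 with none.

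The control libraries placed each shift. In genes with a match to the guide of PKR siRNA 1, the median difference from control minus that in genes without was -0.22 to -0.26 in the PKR siRNA 1 libraries and -0.0025 to 0.02 in the PKR siRNA 2 libraries. For the guide of PKR siRNA 2 the gaps were -0.14 to -0.18 in the PKR siRNA 2 libraries and -0.02 to -0.09 in the PKR siRNA 1 libraries. The 6 libraries were thus split by siRNA for either guide. For the passenger strand of PKR siRNA 1 the gap between the siRNAs was smaller, at 0.05. The gaps against control were -0.05 to -0.10 in the PKR siRNA 1 libraries and -0.02 to 0.005 in the PKR siRNA 2 libraries, so the 6 libraries were split here too. For the passenger strand of PKR siRNA 2 the gap between the siRNAs was 0.04. The PKR siRNA 1 libraries were at -0.03 to -0.11 and the PKR siRNA 2 libraries at -0.03 to 0.01, which overlapped slightly.

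Genes with a match had longer UTRs, with a median of 3516 against 1242 bases for the guide of PKR siRNA 1 and 3440 against 1169 for that of PKR siRNA 2. Genes called higher with PKR siRNA 2 also had longer UTRs (median 1831 bases) than genes called lower (1237) or not called (1382). Within short UTRs (50 to 825 bases), middle (826 to 2281) and long (2282 or more), the gap for the guide of PKR siRNA 1 was 0.28, 0.21 and 0.19 and that for the guide of PKR siRNA 2 -0.23, -0.31 and -0.13. Both kept their direction in each band of length. The gap of -0.10 over all lengths for the guide of PKR siRNA 2 was smaller in size than in any band. It therefore mixes the match with UTR length. The shares by number of matches were not split by length. For the passenger strands the gap changed sign between bands, from -0.11 to 0.02 for PKR siRNA 1 and from -0.11 to 0.02 for PKR siRNA 2. Base composition and other features of the UTRs were not tested. Most called genes held no match, since 1301 of the 1655 called higher lacked one to the guide of PKR siRNA 1 and 1179 of the 1553 called lower lacked one to the guide of PKR siRNA 2.

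**Figure D5:**
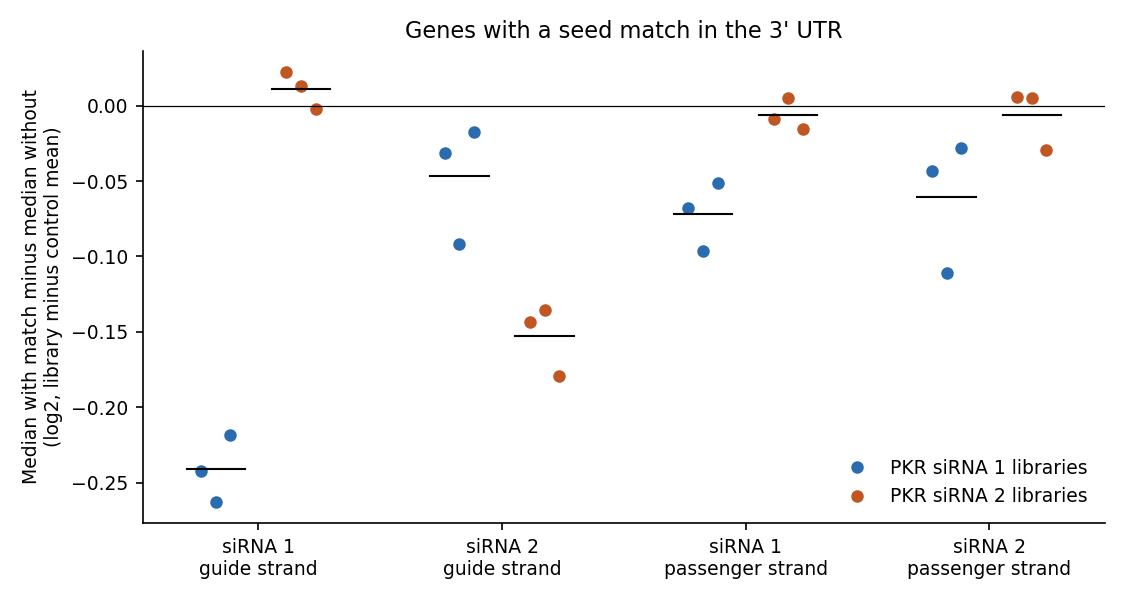
Median log2 difference from control of genes with a seed match in the 3′ UTR minus that of genes without, for the guide and passenger strands of both siRNAs, with 1 point per library and black lines for means. The PKR siRNA 1 libraries are lowest for the guide of PKR siRNA 1 (-0.22 to -0.26) and the PKR siRNA 2 libraries for the guide of PKR siRNA 2 (-0.14 to -0.18).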

How the data were processed

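RNA-seq libraries were grouped by their sample labels. Reads had been aligned with TopHat (hg38, per the submitters' processing notes), counted per gene by featureCounts and TMM-normalized in TCC by the authors. The deposited unit is therefore a normalized signal, in which the reads of each library were rescaled by 1 factor. In each library 100% of values were whole multiples of a step, within 0.001, and could be turned back into reads, although in the first PKR siRNA 2 library the step is close to 1. Versions, annotation and strand setting are not given in the sources used here. The other table of the series was not used, and 0 columns stayed unassigned.

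log2(normalized count + 1) was tested with limma 3.58.1 in R 4.3.3 (lmFit, eBayes with trend), two-sided, over the 9 libraries, in genes averaging 10 or more. Called genes had a Benjamini-Hochberg adjusted p under 0.05 and a fold change over 1.5. With 1512940 to 1873906 reads per library, genes near the minimum are imprecise.

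Named genes were EIF2AK2, ID1 to ID3, LXN, GADD45A, CDKN1A, the 12 largest rises and falls among called genes averaging 50 or more with separate siRNA libraries, and up to 3 members per list in each direction. Some genes that met this rule are not reported here. Further members named were chosen after their values were seen. The comparison, genes and lists were chosen with earlier results of these data known. Seeds were searched in the MANE Select 3′ UTR (10072 genes) or else the longest. Gene positions are those of the deposited table and sequences those of GENCODE 44, in which 10200 tested genes had a coding transcript, 508 of them by an older symbol from RefSeq.

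The fit was repeated on the 6 PKR siRNA libraries alone, without each library, with a replicate block, with median-of-ratios scaling, with a pseudocount of 0.5 or 5 and with genes kept at any level or from 30 upwards. Recovered reads were tested with DESeq2 1.42.0 and with the quasi-likelihood test of edgeR 4.0.16. Seed matches were also searched with 8 bases and in the longest UTR.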

Additional observations from a re-analysis of the deposited data

How the results depend on the processing

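EIF2AK2, the 3 ID genes and LXN kept their direction and their side of the threshold under the alternatives run, and the counts of genes called over the whole table stayed within 1.5 times. The genes higher with PKR siRNA 2 numbered 1275 with a minimum mean of 30 to 2154 with no filter, and the lower genes 1219 to 1823. On recovered reads edgeR called 1784 and 1625 and DESeq2 1632 and 1472. Leaving out each library in turn gave 1669 to 1744 and 1550 to 1631, and a difference in EIF2AK2 of -0.40 to -0.17. The gaps for seed matches moved with a match of 8 bases, the seed match followed by A, to 0.29 for the guide of PKR siRNA 1 and -0.22 for that of PKR siRNA 2, and the cause was not tested. Replicate numbers did not pair the libraries, since deviations from the group mean correlated by -0.03 to 0.03 for the same number and -0.04 to 0.03 for different numbers, and with the replicate block 1738 genes were higher and 1621 lower. In 15 cases another single gene kept its direction and was no longer called, and in 19 a count within a list moved by over 1.5 times. In the ID and BMP list 1 of 2 lower members was left without the first PKR siRNA 1 or the third PKR siRNA 2 library, and in the hypoxia list 1 of 2 higher members was left without the third PKR siRNA 1 or the second PKR siRNA 2 library. Depth limits genes near the minimum of 10 normalized counts, such as EIF2AK2 after knockdown.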
